A study of Mus musculus with 4 samples.

Results

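This account covers 10 genes of serine synthesis, folate-dependent one-carbon metabolism and their ATF4 axis, out of the 35976 gene symbols counted. The genes were chosen by symbol, from textbook pathway membership and with earlier results of these data known. Their counts are therefore set beside the shares of all tested genes only as a description. They comprise the serine synthesis enzymes Phgdh, Psat1 and Psph, the serine hydroxymethyltransferases Shmt1 and Shmt2, and the folate enzymes Mthfd1, Mthfd1l and Mthfd2. The asparagine synthetase gene Asns and the transcription factor gene Atf4 complete the set. All 10 were present in the count files and all 10 passed the filter on low counts, which kept 20389 genes. RNA came from sorted mouse thymocytes that carry both CD4 and CD8a (double-positive, DP), are positive for CD24 and lack surface TCRb. Controls were Cxxc1 +/+ mice with Lck-cre and knockouts (KO) were Cxxc1 F/F mice with Lck-cre, so both genotypes carry the Cre transgene, with 2 libraries each. Lck-cre acts in T-lineage cells from an early thymic stage, and the labels give no age, sex or strain and do not say whether the libraries came from separate animals. The p-values therefore measure only the spread between these libraries, which may be technical. The CXXC1 protein recognises CpG DNA that lacks methylation and is a subunit of complexes that methylate histone H3 at lysine 4.

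Serine is made from the glycolytic intermediate phosphoglycerate in a short pathway of PHGDH, PSAT1 and PSPH. The SHMT enzymes move a carbon unit from serine to folate, SHMT1 mainly in the cytosol and SHMT2 in mitochondria, and the MTHFD enzymes interconvert the folate-bound units that purine and thymidylate synthesis and methylation draw on. ATF4 is a transcription factor whose protein is made when the initiation factor eIF2alpha is phosphorylated, and it is known to activate Phgdh, Psat1, Shmt2, Mthfd2 and Asns. Dividing thymocytes make DNA and therefore draw on these pathways.

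The control libraries held 12150508 (replicate 1) and 34820446 (replicate 2) counts, and the KO libraries 36243182 and 33544428. Levels are counts scaled to library size (CPM) after TMM scaling, a correction for library composition, and intervals on them reflect the spread of 2 libraries per genotype. Cxxc1 itself had 111 and 53.5 CPM in the controls against 35.7 and 39.4 CPM in the KO libraries. Its log2 fold change (KO over control) was -1.12 ± 0.34 (standard error), which did not pass the test (adjusted p = 0.199). Gene-level counts take in any exons outside the deleted part, and what the remaining Cxxc1 counts reflect was not tested. Summed markers of the DP stage were lower in the KO libraries, at 4988 and 7590 CPM against 10840 and 14300 CPM. Of these markers 3 of 10 were called lower, where 0.181% of all tested genes were. Summed double-negative stage markers were 424 and 271 CPM against 168 and 158 CPM, with 2 of 7 called higher (0.27% of all tested genes). Myeloid, dendritic, B cell and erythroid marker sums lay between 7.01 and 54.3 CPM, with 1 of 6 erythroid genes called higher and 0 called in the other 3 lists. Mature single-positive and thymic stroma sums lay between 61.8 and 164 CPM with 0 called. No DP marker was at 0 in any library. In bulk RNA a change in the mix of cells and a change in RNA per cell cannot be told apart, and the part of these markers in the values below was not tested.

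The promoters are shown first because CXXC1 binds CpG DNA and ATF4 binds a known element. RefSeq promoter sequence (GRCm38.p6) was found for all 10 genes, with 11 start sites. The annotated gene span reaches upstream of the start used for Mthfd1, Mthfd1l, Mthfd2 and Psph, and of the inner Psat1 start. For Psph, 196 of the 250 bases searched are GENCODE exon. In the 250 bases before the start, the member promoters held a median of 15 CpG dinucleotides (range 7 to 24), against 11 for promoters of tested genes. CpG was above 0.6 of its expected frequency in 8 of the 11, or 72.7%, and in 49.4% of promoters of tested genes. For a list of ATF4 targets and stress-response genes, the share was 66.7% of 39 promoters and the median was 18 CpG. High CpG was therefore not particular to the members. The lines below give 100 bases, 5′ to 3′ on the gene's strand with CpG in capitals. Each ends just before the start used or, for Phgdh, before the first annotated exon base of its 250-base window. The Mthfd1 stretch therefore lies within the annotated gene. Shown are the 4 genes whose KO libraries both lay above both controls, and Atf4, which did not differ detectably.
Phgdh: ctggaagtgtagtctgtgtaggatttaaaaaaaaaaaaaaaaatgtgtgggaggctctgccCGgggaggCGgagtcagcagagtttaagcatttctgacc
Shmt1: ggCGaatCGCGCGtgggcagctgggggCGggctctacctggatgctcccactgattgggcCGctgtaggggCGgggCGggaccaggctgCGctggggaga
Shmt2: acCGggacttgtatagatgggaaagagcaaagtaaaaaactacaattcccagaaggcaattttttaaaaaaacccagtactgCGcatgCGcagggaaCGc
Mthfd1: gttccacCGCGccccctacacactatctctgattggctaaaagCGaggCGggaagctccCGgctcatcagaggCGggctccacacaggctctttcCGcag
Atf4: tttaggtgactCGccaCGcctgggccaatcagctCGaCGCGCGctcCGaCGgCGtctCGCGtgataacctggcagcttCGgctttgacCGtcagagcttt
These stretches are chr3:98339991-98340090 (minus strand), chr11:60811266-60811365 (minus), chr10:127522445-127522544 (minus), chr12:76255132-76255231 (plus) and chr15:80255084-80255183 (plus). They hold 2, 9, 4, 7 and 13 CpG, so Atf4 had the most CpG of the 5 and Phgdh the fewest.

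The C/EBP-ATF response element, searched as TGATGNAA on both strands of the same 250 bases, was found at 1 of the 11 member promoters, that of Asns, at 2.37% of promoters of tested genes and at 3.45% of all promoters of that length. It was found at 13 of 39 promoters (33.3%) of the list of ATF4 targets and stress-response genes. The E-box CACGTG, which MYC and related factors bind, was found at 0 of the 11, at 7.19% of promoters of tested genes and at 6.02% of all promoters. A match is a run of letters, and its absence from this window says nothing of the factor. The Asns element and both matches of Slc7a11, a cystine transporter gene of the list chosen after its values were seen, are printed in 30 bases with the element in capitals.
Asns: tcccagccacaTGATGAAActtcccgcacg
Slc7a11, first: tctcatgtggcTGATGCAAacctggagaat
Slc7a11, second: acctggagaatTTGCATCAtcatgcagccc
They lie at chr6:7693214-7693243, chr3:50443661-50443690 and chr3:50443642-50443671, all for genes on the minus strand. The Asns element starts at position -23 and those of Slc7a11 at -66 and -47, counted from the annotated start. Another annotated Asns transcript begins upstream, so that element is also within an exon of GENCODE M21.

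Phgdh, Shmt1, Shmt2 and Mthfd1 were 1.82 to 2.25 times as high in KO as in control DP thymocytes by point estimate, and Atf4 was level, but no member passed the test. Of the 10 genes, 0 passed edgeR's quasi-likelihood test at an adjusted p below 0.05, where 0.451% of all tested genes did (0.27% higher and 0.181% lower). DESeq2 also called 0 of the 10, where it called 2.35% of genes higher. At an unadjusted p below 0.05, 4 were higher (Phgdh, Shmt1, Shmt2 and Mthfd1) and 0 lower, against 6.97% and 6.91% of all tested genes in each direction. Both KO libraries lay above both controls for the same 4, a share of 40% (22.8% of all tested genes and 27.3% of those averaging 10 CPM or more), and below both controls for 0 (24% of all tested genes). The log2 fold change was above zero for 9 of 10 genes, with a median of 0.70 over the 10, against a median of -0.04 over all tested genes and 0.06 over those of at least 10 CPM. The log2 fold change was above zero for 47.6% of all tested genes and 55.9% of those of at least 10 CPM. The members' median depended on single libraries: it was 0.23 without control replicate 2 (6 of 10 above zero), 0.33 without KO replicate 1, 1.00 without KO replicate 2 and 1.21 without control replicate 1. With no filter on low counts, 3 members were called higher, where 1.73% of all tested genes were (0.27% in the reported fit). Calls with 1 library left out depended on which library it was. They rest on 1 library in a group and are not listed by gene.

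**Figure D1:**
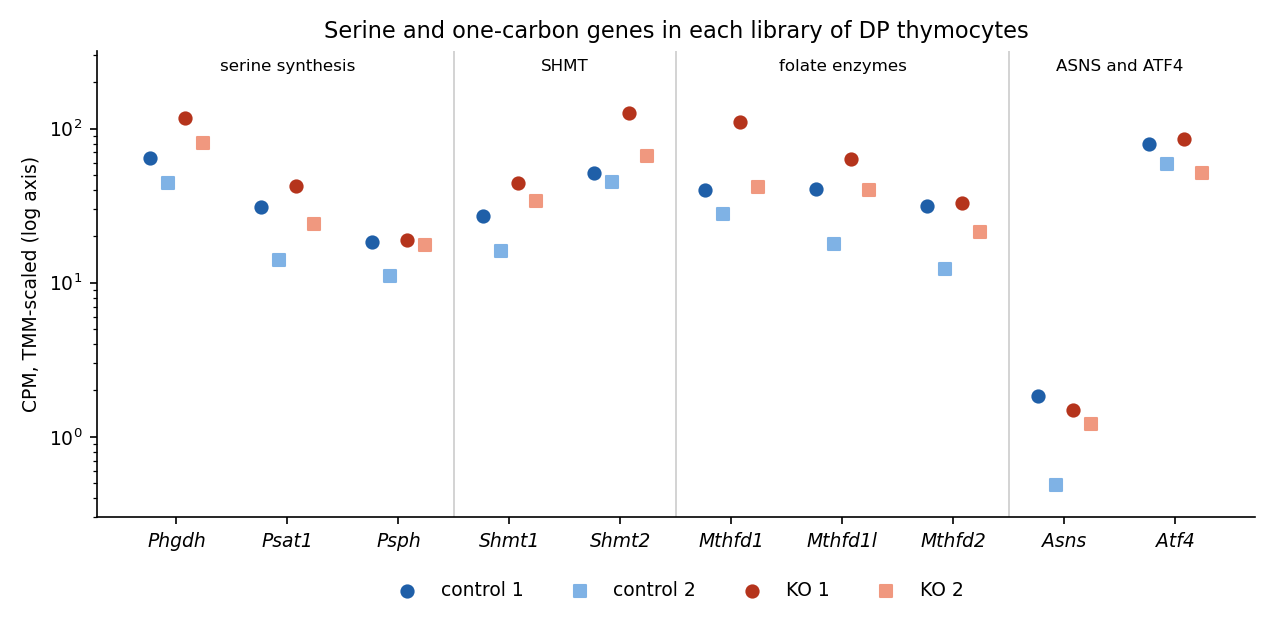
Level of each gene in each library, in TMM-scaled CPM on a log axis, grouped by role; circles are replicate 1 and squares replicate 2 of each genotype, blue for control and red for KO. Phgdh, Shmt1, Shmt2 and Mthfd1 have both KO points above both control points, while Atf4 and Asns overlap.

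Among the serine synthesis enzymes, only Phgdh had KO libraries that did not overlap the controls. Phgdh encodes phosphoglycerate dehydrogenase, which commits phosphoglycerate to serine (chromosome 3, 98313171 to 98339969). Its level was 64.6 and 44.1 CPM in the controls against 117 and 80.2 CPM in the KO libraries. Both KO values were above both control values, with a log2 fold change of 0.86 ± 0.29 (95% interval 0.22 to 1.51, adjusted p = 0.233). Psat1, the phosphoserine aminotransferase gene (chromosome 19, 15905123 to 15925059), had 31.2 and 14.1 CPM against 42.3 and 24.0 CPM. Its KO 2 library lay below control 1, and its log2 fold change was 0.56 ± 0.43 (adjusted p = 0.640). Psph, the gene of the phosphatase that releases serine (chromosome 5, 129765558 to 129787443), had 18.4 and 11.02 CPM against 18.9 and 17.4 CPM. The groups overlapped, at 0.31 ± 0.37 (adjusted p = 0.791), with a 95% interval from -0.53 to 1.16 that does not show the genotypes to be alike. The first exon of Psph overlaps the gene Cct6a on the other strand, and no source used here states whether the counting was stranded. Cct6a, chosen for that overlap, had 90.1 and 74.7 CPM against 171 and 93.7 CPM (adjusted p = 0.358).

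Both serine hydroxymethyltransferase genes had KO libraries above the controls, by a similar amount. Shmt1 (chromosome 11, 60788897 to 60811265) had 27.2 and 15.98 CPM in the controls against 44.5 and 33.9 CPM in the KO libraries. The groups did not overlap, and the log2 fold change was 0.87 ± 0.34 (95% interval 0.10 to 1.64, adjusted p = 0.308). Shmt2 (chromosome 10, 127517123 to 127522444) had 51.7 and 45.0 CPM against 126 and 66.7 CPM. KO 1 was nearly 2 times KO 2 for this gene, so most of the spread was within the KO group, and the log2 fold change was 1.00 ± 0.31 (95% interval 0.29 to 1.71, adjusted p = 0.214). The estimate for Shmt2 was 1.41 without KO replicate 2 and 0.52 without KO replicate 1, each resting on 1 KO library. The ratio of Shmt2 to Shmt1 CPM, which compares a gene pair within a library, was 1.90 and 2.81 in the controls and 2.84 and 1.97 in the KO libraries, so the groups overlapped. Some exon bases of Shmt1 lie within the span of the gene Smcr8, and some of Shmt2 within that of Ndufa4l2. Ndufa4l2 had 0 to 7 counts per library and Smcr8 had a log2 fold change of -0.07 ± 0.25.

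The folate enzymes differed from one another in how far the KO libraries lay from the controls. Mthfd1, the cytosolic enzyme with dehydrogenase, cyclohydrolase and synthetase activities (chromosome 12, 76254406 to 76319820), had 39.7 and 27.9 CPM in the controls against 110 and 41.6 CPM in the KO libraries. KO 1 stood far above the rest, while KO 2 cleared control 1 narrowly. The log2 fold change of Mthfd1 was 1.17 ± 0.42 (95% interval 0.22 to 2.12, adjusted p = 0.271), the largest of the 10, and 9.25% of tested genes had a larger one. It was 0.36 without KO replicate 1, 1.72 without KO replicate 2 and 1.46 without control replicate 1, each with 1 library left in a group. Gm34868, a gene whose span covers exon bases of Mthfd1, had 1.34 and 1.04 CPM against 6.29 and 2.75 CPM (adjusted p = 0.344). Reads in any bases that the pair shares cannot be told apart here.

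Mthfd1l, the mitochondrial formate-producing synthetase gene (chromosome 10, 3972892 to 4167081), had 40.5 and 17.9 CPM against 63.9 and 39.8 CPM. KO 2 was just under control 1 for this gene, and the log2 fold change was 0.84 ± 0.41 (adjusted p = 0.408), with the test passed only when control replicate 1 was left out among the libraries (1.55, adjusted p = 0.0228). Mthfd2, the mitochondrial dehydrogenase and cyclohydrolase gene known for its activity in dividing cells (chromosome 6, 83305704 to 83326011), had 31.3 and 12.3 CPM against 32.9 and 21.3 CPM. Control 1 and KO 1 were nearly equal for Mthfd2, at a log2 fold change of 0.32 ± 0.45 (95% interval -0.69 to 1.34, adjusted p = 0.830). Mthfd2l, its paralog, had 9.67 and 8.57 CPM against 6.29 and 10.9 CPM (-0.08 ± 0.46). Summed by compartment, the mitochondrial genes Shmt2, Mthfd2 and Mthfd1l had 124 and 75.1 CPM in the controls against 223 and 128 CPM in the KO libraries. The cytosolic pair of Shmt1 and Mthfd1 had 66.8 and 43.9 CPM against 154 and 75.5 CPM. Both sums were higher in each KO library than in each control.

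Atf4 and Asns showed no difference beyond the replicate spread. Atf4 (chromosome 15, 80255184 to 80257545) had 79.5 and 59.1 CPM in the controls against 85.2 and 51.8 CPM in the KO libraries. The KO libraries held both the highest and the lowest value, and the log2 fold change was -0.02 ± 0.29 (95% interval -0.68 to 0.65, adjusted p = 0.989). ATF4 activity is set largely by translation, which RNA counts do not measure. Asns, whose enzyme makes asparagine from aspartate and glutamine (chromosome 6, 7675165 to 7693209), was near the low end of the data with 22 and 17 counts in the controls and 52 and 43 in the KO libraries. Its level was 1.85 and 0.490 CPM against 1.49 and 1.21 CPM, so both KO values lay between the control values. The log2 fold change of Asns was 0.23 ± 1.21, and its 95% interval of -2.51 to 2.96 leaves large changes in either direction undetected at this depth.

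**Figure D2:**
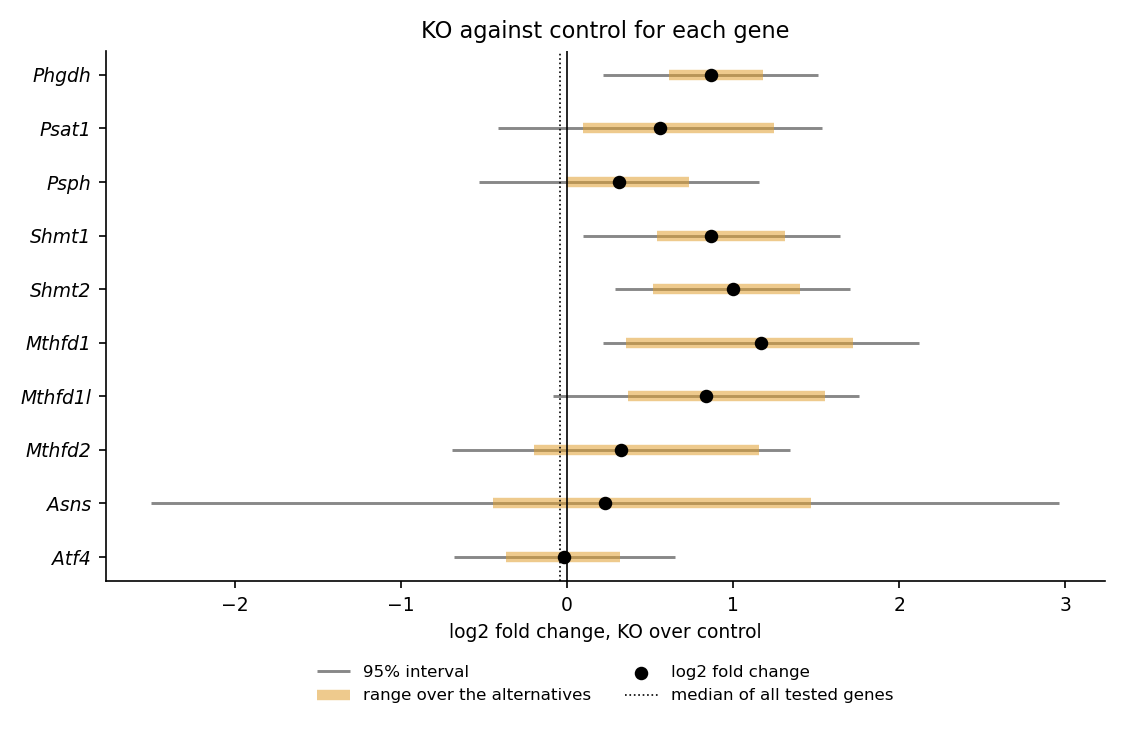
Log2 fold change of KO over control for each gene (black points), with the 95% interval of the edgeR fit (grey lines) and the range over 12 other settings (orange bars; 11 for Asns). The intervals of Phgdh, Shmt1, Shmt2 and Mthfd1 lie above zero before adjustment for 20389 tests, and that of Asns spans -2.51 to 2.96.

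Levels were compared between genes as CPM per kilobase of protein-coding exon (GENCODE M21 basic set). Phgdh and Atf4 had the highest mean over the 4 libraries, at 40.4 and 39.9 CPM per kilobase, and their ranges overlapped (23.3 to 62.0 and 30.03 to 49.4). Shmt2 followed at 31.4, then Mthfd1 at 16.9, Mthfd2 at 11.7, Shmt1 at 10.6, Psat1 at 9.50, and Mthfd1l and Psph at 9.49 each. Each of these ranges over the 4 libraries overlapped that of its neighbour in the order. Compared within each library, Shmt2 was above Mthfd1 in 4 of 4, while every other neighbouring pair down to Psph was level or changed order between libraries. Asns stood apart at 0.583 CPM per kilobase, and its highest library (0.856) was below the lowest library of every other member (4.18). Asns RNA was the scarcest of the 10 in every library.

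Within each genotype, replicate 1 had more of these transcripts than replicate 2. All 10 genes were higher in control 1 than in control 2 and also higher in KO 1 than in KO 2, with median log2 differences of 0.75 and 0.66. The same held for 25.7% of all tested genes and for 32.1% of genes averaging 10 CPM or more. Replicates have no order and the labels name no batch, so this describes the libraries. The smallest differences between controls were those of Shmt2 (0.20) and Atf4 (0.43), and the largest was that of Asns (1.92). Between the KO libraries they ran from 0.12 for Psph to 1.399 for Mthfd1. A list of 21 proliferation genes was higher in the same libraries, 21 of 21 genes in both pairs, with median log2 differences of 0.51 and 0.67. That list had a median log2 fold change of -0.02 between genotypes with 0 called (1 at an unadjusted p below 0.05 and 0 by DESeq2). Its members lay on both sides of zero, and those described here were picked after their values were seen. The 6 replication helicase genes Mcm2 to Mcm7 had log2 fold changes of 0.33 to 0.60 with overlapping groups, and the cell cycle factor gene E2f1 had 0.92 ± 0.36 (adjusted p = 0.306). Both KO libraries lay below both controls for Top2a, Cdk1, Ccnb2, Ccna2, Birc5 and Rrm2, at -0.63 to -0.32. These are 6 of 21 genes, where 24% of all tested genes lay below, and 1 of 21 lay above both controls (22.8% of all tested genes). Control 1 had the fewest counts of the 4 libraries and KO 1 the most. The part of proliferation and of depth in the spread of the 10 genes was not tested.

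**Figure D3:**
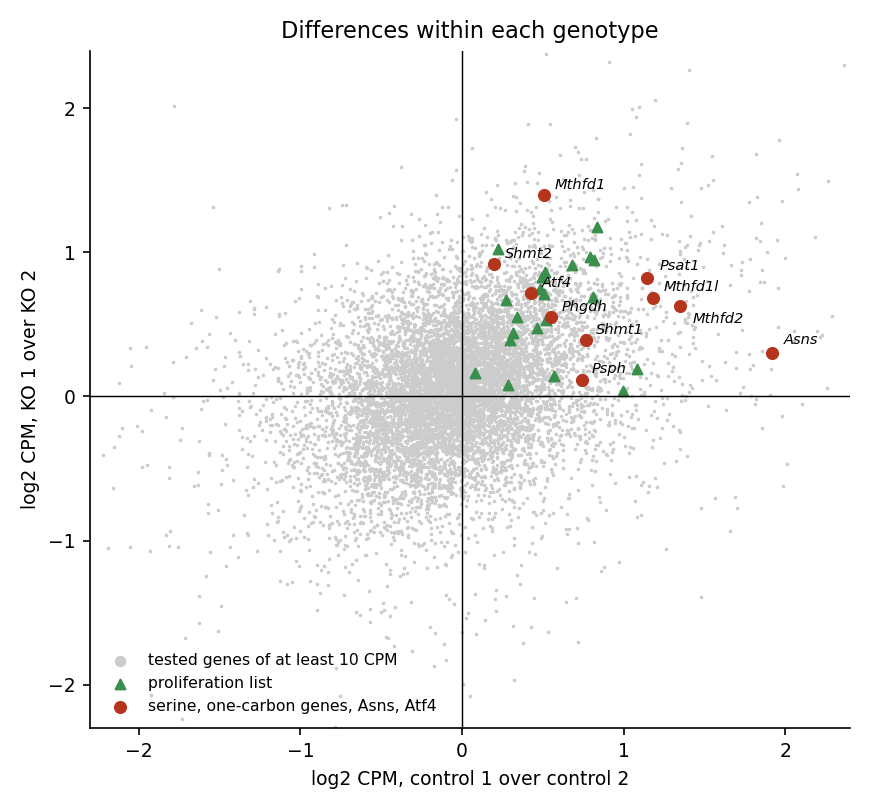
Log2 ratio of CPM between the control libraries (horizontal axis) and between the KO libraries (vertical axis) for the 10 genes (red), the proliferation list (green triangles) and tested genes of at least 10 CPM (grey; a few lie beyond the axes). All 10 red points and all 21 triangles are in the upper right part, where 32.1% of the grey genes lie.

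The genes whose levels over the 4 libraries were most like those of Atf4 and Phgdh were found by the root mean square difference of centred log2 CPM, among 8571 named genes of at least 10 CPM. For Atf4 they were Rpa2 (0.0167), Rad51ap1, Ncapg2, Mbd3 and Mrpl18 (0.0379). Rpa2 encodes a subunit of replication protein A, which binds single-stranded DNA, Rad51ap1 a recombination factor and Ncapg2 a condensin subunit. Rpa2 had 39.3 and 28.8 CPM in the controls against 41.0 and 24.8 CPM in the KO libraries. For Phgdh they included Pdp2 (0.0308), Smo and Mdn1 (0.0502). Mdn1, a ribosome assembly factor gene, had 179 and 127 CPM against 333 and 210 CPM. With 4 libraries, many genes can match one profile closely, so likeness here is a description.

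Purine synthesis, which uses one-carbon units, had the highest median of the related lists and the largest share of genes above zero. Of 13 tested purine genes, 0 were called by edgeR and 2 by DESeq2, both higher, where DESeq2 called 2.35% of genes higher. At an unadjusted p below 0.05, 6 were higher and 1 lower, where 6.97% and 6.91% of all tested genes were, and these shares are the background for the counts of each list below. The log2 fold change was above zero for 12 of 13 (92.3%, against 47.6% of all tested genes and 55.9% of those of at least 10 CPM), with a median of 0.57. Gart and Pfas, enzymes of early purine ring assembly chosen after their values were seen, had log2 fold changes of 1.30 ± 0.31 and 1.18 ± 0.26 (adjusted p = 0.118 and 0.0943). Gart had 45.7 and 45.1 CPM in the controls against 147 and 76.9 CPM in the KO libraries, and Pfas had 57.3 and 47.9 CPM against 138 and 99.3 CPM. Both genes were higher in each KO library than in each control. The abundant members Prps2, which makes the ribose donor, and Impdh1, of guanine nucleotide synthesis, had 0.03 ± 0.21 and -0.62 ± 0.22. With no filter on low counts, 3 purine genes were called, where 920 of 30613 tested genes were called in either direction. Purine calls with 1 library left out depended on which library it was, and a group then holds 1 library.

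Other folate genes had 0 of 17 tested members called and a median of 0.38, with 3 higher and 0 lower at an unadjusted p below 0.05. Tyms, the thymidylate synthase gene, was level at 82.9 and 50.5 CPM against 83.8 and 50.5 CPM (0.01 ± 0.33). Serine and glycine transport and cleavage genes had 0 of 22 called and a median of 0.00, with 2 higher and 1 lower at an unadjusted p below 0.05. The 2 higher, named after their values were seen, were Gcsh (1.89 ± 0.62) and Amt (1.76 ± 0.59), and the 1 lower was Slc38a2. The transporter genes Slc38a1 and Slc38a2 had 0.15 ± 0.24 and -0.70 ± 0.23 (adjusted p = 0.868 and 0.233). Methionine cycle genes had 0 of 16 called and a median of 0.27, with 3 higher and 0 lower at an unadjusted p below 0.05. The S-adenosylmethionine synthetase gene Mat2a had 0.31 ± 0.27. The asparagine, aspartate, glutamine and proline list had 0 of 16 called and a median of 0.32, with 3 higher and 1 lower at an unadjusted p below 0.05. DESeq2 called 1 gene higher in that list and 1 in the other folate list, where it called 2.35% of genes higher. Shares above zero were 81.2% for the methionine, 76.5% for the other folate and 75% for the asparagine list. They were 60% for glycolysis and 50% for serine and glycine transport (47.6% of all tested genes). Glycolysis had 0 of 20 called, 0 at an unadjusted p below 0.05 and 0 by DESeq2, and a median of 0.08.

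ATF4 target and stress-response genes did not share a direction. Of 38 tested, 0 were called, 4 were higher and 2 lower at an unadjusted p below 0.05 (6.97% and 6.91% of all tested genes), DESeq2 called 1 higher and 1 lower, and the median was 0.19. The 4 with higher values, named after their values were seen, were Pck2, a mitochondrial phosphoenolpyruvate carboxykinase gene (1.37 ± 0.45), Aldh18a1, of proline synthesis (0.97 ± 0.26), the tRNA synthetase gene Yars (0.96 ± 0.27) and the tRNA exporter gene Xpot (0.67 ± 0.26). Their adjusted p ran from 0.163 to 0.307. The 2 with lower values were Slc7a11 and Slc38a2. The abundant member Eprs, a tRNA synthetase gene, had 0.46 ± 0.27. Slc7a11, whose promoter matches are printed above, had 122 and 209 CPM in the controls against 19.5 and 72.1 CPM in the KO libraries. Both KO values were below both controls, at -1.86 ± 0.53 (adjusted p = 0.179). Ddit3, a stress-induced factor gene, and Cebpg, an ATF4 partner gene, also chosen after their values were seen, had log2 fold changes of -0.19 and 0.00. Genes of eIF2alpha kinases, phosphatases and initiation had 0 of 15 called and a median of 0.40, with 3 higher and 0 lower at an unadjusted p below 0.05. The 3, named after their values were seen, were Eif2ak4 (1.02 ± 0.28), Eif2ak2 (0.92 ± 0.30) and Impact (0.75 ± 0.23), at adjusted p of 0.174 to 0.230. The abundant members were Ppp1r15b, a phosphatase regulator gene, at 0.03 ± 0.25 and the kinase gene Eif2ak3 at -0.60 ± 0.29. Among 24 tested partners and regulators of ATF4, 1 was called. That gene was Myc, which rose from 21.9 and 12.98 CPM to 201 and 109 CPM (3.16 ± 0.38, adjusted p = 0.0156), while the list median was -0.19.

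**Figure D4:**
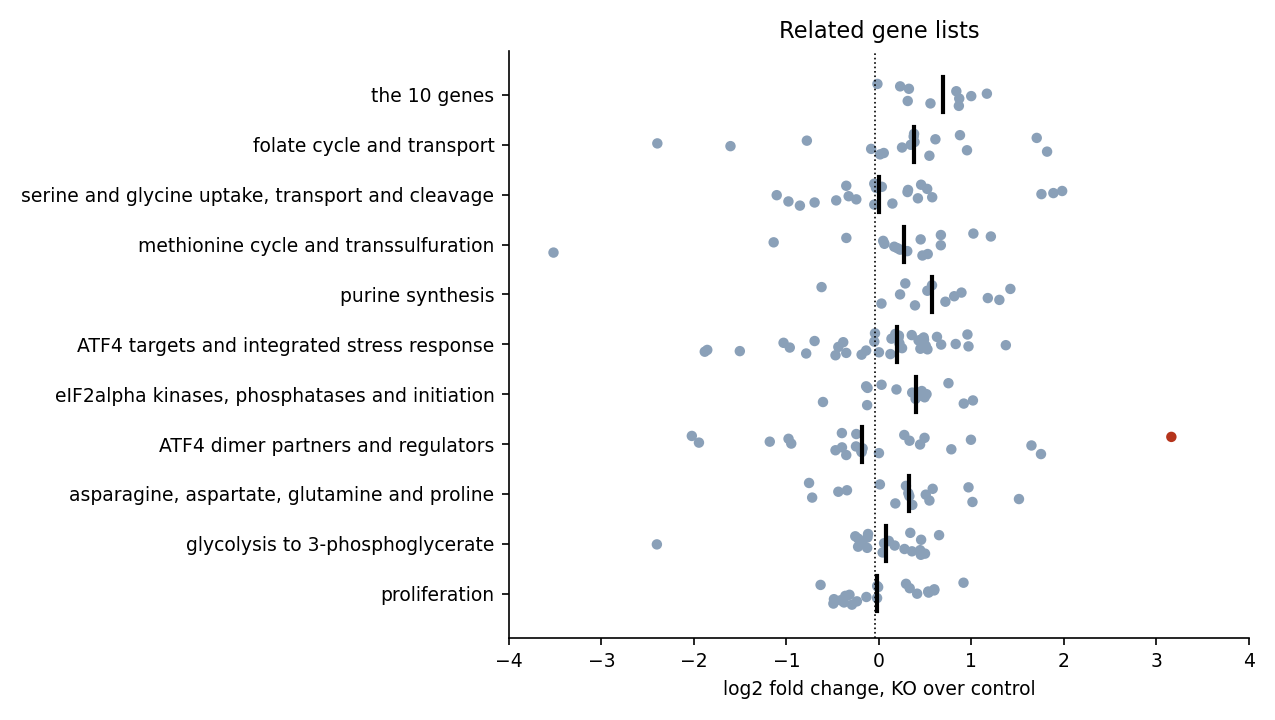
Log2 fold change of KO over control for the 10 genes and for tested members of 10 related lists; each point is a gene, red where its adjusted p is below 0.05, black bars are medians and the dotted line is the median of all tested genes. The medians of the 10 genes (0.70) and of purine synthesis (0.57) lie farthest to the right with all 4 libraries, and Myc is the one red point. The median of the 10 genes ran from 0.23 to 1.21 when 1 library was left out.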

How the data were processed

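Bulk RNA-seq of sorted DP thymocytes was analysed from 1 count file per library. The deposited values are whole-number counts per gene symbol, not normalised. Per the file headers the reads were aligned with HISAT2. Per the submitters' processing notes, the tools used included HISAT2 2.2.1, featureCounts 2.0.8, cutadapt 4.0 and edgeR 3.36.0, and the build was mm10. Which annotation was counted, whether by strand, and what was done with multiply matching reads were not found in any source used here. Per the labels' protocols, libraries were made from amplified cDNA, so PCR copies add error that counting intervals do not cover.

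Counts were fitted in R 4.3.3 with edgeR 4.0.16 (filterByExpr with minimum count 10 and minimum total 15, TMM, estimateDisp, glmQLFit, glmQLFTest) over all 20389 tested genes with genotype as the term. P-values of 2-sided tests were adjusted by Benjamini and Hochberg's method over all tested genes, and the call threshold was 0.05. A standard error is the log2 fold change divided by the square root of F, and 95% intervals use the moderated degrees of freedom. DESeq2 1.42.0, other scalings and filters, a replicate block and leaving out each library were the 12 alternatives. Gene spans are RefSeq on GRCm38.p6, the mm10 assembly. The members and lists were chosen with earlier results of these data known. Genes named were the 10 members and, per list, up to 3 called genes with the smallest p or the 2 with the highest CPM, and any other gene is marked as picked later. A few genes this rule selects are not reported here.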

Additional observations from a re-analysis of the deposited data

How the results depend on the processing

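Against 92 genes called over the whole table, DESeq2 called 977, no filter on low counts 920, a minimum of 5 CPM in 2 libraries 228, and leaving out 1 library 223 to 864. The members called higher were 0 in the reported fit, where 0.27% of all tested genes were called higher. With no filter they were 3 (Phgdh, Shmt2 and Mthfd1), where 1.73% of all tested genes were. On leaving out 1 library, which members passed depended on the library. The members called lower were 0 under any of the 12 alternatives. Of the 119 member values recomputed, 100 kept direction and side of the threshold, 12 newly passed it and 7 changed sign; Asns could not be tested at the 5 CPM minimum. Atf4 was 0.001 with library totals only, 0.013 with no filter, and -0.37 to 0.32 on leaving out 1 library. On leaving out 1 library, Psph ran from -0.009 to 0.74, Mthfd2 from -0.20 to 1.16 and Asns from -0.44 to 1.47, each lowest without control replicate 2. Control replicate 1 was above control replicate 2 for each of these genes, so leaving out replicate 2 kept the higher control. Why the controls differed was not tested. With 1 library left in a group, its spread is assumed to be that of the other group.

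With a replicate block, which treats libraries of the same number as paired, 1599 genes and 5 members (Phgdh, Shmt1, Shmt2, Mthfd1 and Mthfd1l) were called, all 5 higher, where 4.58% of all tested genes were called higher, and 6 of 13 purine genes were called. The labels do not tie same-numbered libraries to a shared animal or day. The replicate differences of the control and KO pairs correlated at r = 0.0731 over all tested genes and 0.344 over genes of at least 10 CPM, across genes that are not independent.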

Other observations

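The proliferation list offers another scale within a library, chosen after the values were seen and given as a description. Its 21 genes summed to 6931 and 5138 CPM in control 1 and control 2 and to 6655 and 4453 CPM in KO 1 and KO 2, with Mki67 alone making up 34.8% to 43.7% and Top2a 12.4% to 16.7%. Both had lower estimates in the KO, at -0.29 ± 0.26 and -0.49 ± 0.27, which raises ratios to the sum in the KO libraries. Per 1000 CPM of that sum, Phgdh had 9.33 and 8.57 in the controls and 17.6 and 18.0 in the KO libraries. Shmt1 had 3.92 and 3.11 against 6.69 and 7.62, and Mthfd1l had 5.85 and 3.48 against 9.61 and 8.93. The list and the 10 genes were both higher in replicate 1 of each genotype. Dividing by the sum therefore takes out part of that shared difference by construction. On this scale the replicates of Phgdh within each genotype were closer than in CPM, and the genotypes of Mthfd1l no longer overlapped. Atf4 had 11.5 and 11.5 against 12.8 and 11.6, so its libraries were close to one another. Both KO libraries were above both controls for 9 of the 10 genes, with Asns the exception, against 4 of 10 in CPM. Some margins were narrow. The higher control and lower KO values were 2.66 and 2.84 for Psph, 4.51 and 4.78 for Mthfd2, and 11.5 and 11.6 for Atf4. The background share was 22.7% of all tested genes on this scale and 22.8% in CPM, or 26.8% and 27.3% for genes of at least 10 CPM.

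Among the 10 genes, the ratio of Mthfd1 to Mthfd2 CPM was 1.27 and 2.27 in the controls and 3.34 and 1.96 in the KO libraries, so the genotypes overlapped in the balance of the cytosolic and mitochondrial enzyme RNAs.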
